A study of Mus musculus with 6 samples.

Results

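Chemokines are small secreted proteins that steer cells along gradients, and their receptors are G-protein-coupled receptors on leukocytes, endothelium and other cells. The letters of a name give the spacing of the first cysteines of the ligand: CC, CXC, CX3C or a single one (XC). Atypical receptors (Ackr) bind chemokines without coupling to G proteins and carry or clear them. In fat, chemokines such as Ccl2 are known for recruiting monocytes, and Cxcl12 for holding cells that carry Cxcr4.

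The genes described here are every row of the expression table of interscapular brown fat whose symbol is Ccl, Cxcl, Ccr, Cxcr, Cx3cl, Xcl, Xcr or Ackr followed by a number. There were 55 of them among 19241 genes: 21 CC ligands, 12 CXC ligands, 1 CX3C ligand, 10 CC receptors, 6 CXC receptors, 1 XC receptor and 4 atypical receptors. Of these, 24 had a mean of at least 0.5 FPKM (fragments per unit of transcript length and of library depth) over the libraries and could be tested, and 31 did not. The 24 were 18 ligands (Cxcl12, Ccl6, Ccl9, Ccl11, Ccl27a, Ccl2, Ccl7, Ccl12, Ccl25, Ccl24, Cx3cl1, Cxcl9, Cxcl10, Ccl3, Cxcl1, Cxcl16, Ccl21b and Ccl5) and 6 receptors (Ackr3, Cxcr2, Ccr1, Ackr1, Cxcr4 and Ccr2).

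RNA of the whole interscapular depot was taken from newborn mice and sequenced in bulk as 3 libraries labelled WT, from mice carrying a floxed Fstl1 gene, and 3 labelled KO, from Myf5-Fstl1 KO mice, in which Fstl1 was removed in the lineage marked by Myf5. Fstl1 encodes a secreted glycoprotein. Myf5 marks precursors of skeletal muscle and of much of this depot, so that cells of other origin, leukocytes and endothelium among them, keep the gene. The labels give no litter, sex or pooling of animals, and p-values measure the spread between these libraries only.

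The targeted gene checked the labels: Fstl1 was at 54.4 to 130.04 FPKM in WT, against 7.93 to 13.1 in KO (log2 fold change −2.79, limma adjusted p = 0.00979). Xist was at 44.8 to 85.5 FPKM in WT and 0.92 FPKM or less in KO, and the Y-linked Ddx3y at 59.5 to 60.8 in KO and at most 0.23 FPKM in WT, so in each comparison below genotype and sex cannot be told apart. The gaps between low FPKM values put the libraries at 13840000 to 15060000 reads each. The 10 markers of brown adipocytes summed to 21285 to 26677 FPKM in WT and 20332 to 22263 in KO. Of the 10, 1 passed an adjusted p of 0.05 (limma), lower in KO, where 2.21% of all genes tested passed. The fitted change was above 0 in 4 and below 0 in 6. Ucp1 was at 4366 to 6255 FPKM in WT and 1695 to 3592 in KO. In KO replicate 1 the skeletal muscle markers summed to 291 FPKM, against 1178 to 1699 in the others, and in WT replicate 3 the erythroid markers summed to 14404 FPKM, against 3077 to 5073.

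In all, 1 of the 24 tested members passed an adjusted p of 0.05 for KO against WT (limma, adjusted over all 13331 genes tested), the CC ligand Ccl3, which fell. That is 4.17% of the members, where 2.21% of all genes tested passed, 1.21% higher and 1.01% lower in KO. The WT and KO values did not overlap in 11 of the 24, with 7 higher and 4 lower in KO, against 24.9% of all genes tested, 13.6% higher and 11.4% lower. Cxcl10, Ccl3, Cxcl1 and Ccl5 passed the filter through 1 group, the other lying below 0.5 FPKM on average, so this count is a description and not support for a difference. An unadjusted p under 0.05 was found for 12 of the 24, against 19.2% of all genes tested. The median log2 fold change over the 24 was 0.03, beside 0.01 over all genes. Every fold change is on the scale log2(FPKM + 1), on which the changes of low genes come out smaller than on the FPKM scale. In bulk tissue, fewer cells of a type and less RNA per cell cannot be told apart.

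**Figure D1:**
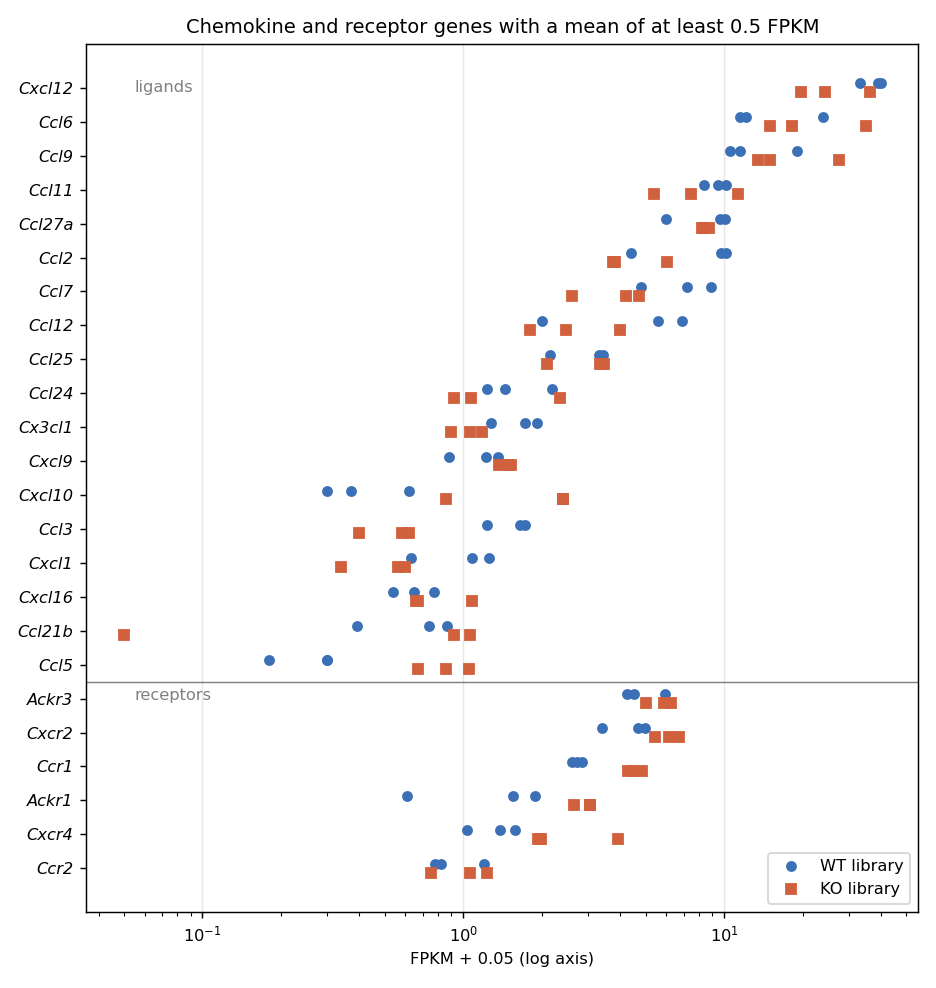
FPKM of the 24 tested genes in each library, on a log axis after adding 0.05 FPKM; circles are the 3 WT and squares the 3 KO libraries, ligands above and receptors below the line. Levels run from Cxcl12, at 19.7 to 39.8 FPKM, to Ccl5, at 0.13 to 1 FPKM; the lowest point is Ccl21b, listed at 0 in KO replicate 3.

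Ccl3 (Entrez gene 20302), also called MIP-1α, is a macrophage-derived ligand of Ccr1. Its level was 1.18, 1.67 and 1.60 FPKM in WT replicates 1, 2 and 3, against 0.57, 0.53 and 0.35 in KO replicates 1, 2 and 3. Each KO library lay below every WT library. The KO mean, 0.483 ± 0.117 FPKM (SD, n = 3), was 32.6% of the WT mean, 1.48 ± 0.265 FPKM (SD, n = 3). The limma fit put the log2 fold change at −0.74 (SE 0.15, adjusted p = 0.0459). These values stand for about 12.3 to 17.9 reads per library in WT and 3.7 to 5.7 in KO, as estimated from the depth and a transcript of 766 nt. The call was lost in 10 of 15 alternatives, where the adjusted p ran up to 0.183 without WT replicate 2. The 12 macrophage markers summed to 144 to 213 FPKM in WT and 203 to 280 in KO. Each had a fitted change above 0, against 51.6% of all genes tested, and 0 passed, against 2.21%. An unadjusted p under 0.05 (limma) was found for 5, against 19.2% of all genes tested. Whether these markers bear on Ccl3 was not tested.

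The neighbour of Ccl3 on chromosome 11, Ccl4 (MIP-1β) was at 0, 0.32 and 0.54 FPKM in WT, against 0.23, 0.21 and 0.11 in KO, under the filter and at no more than 4.9 estimated reads in any library. The groups overlapped. The 250 bases before the start of Ccl3 (GRCm38.p6, chr11:83649379-83649628, minus strand), shown because it is the member that passed, held no match to the letters described below.

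Ccl3: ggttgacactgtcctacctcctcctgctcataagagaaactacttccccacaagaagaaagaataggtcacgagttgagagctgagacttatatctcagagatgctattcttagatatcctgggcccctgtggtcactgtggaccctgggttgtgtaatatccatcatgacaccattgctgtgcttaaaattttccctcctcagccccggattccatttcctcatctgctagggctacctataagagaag

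Of the 34 ligands chosen by symbol, the most abundant over the libraries was Cxcl12, the stromal chemokine that binds Cxcr4 and Ackr3. Its level was 33.1, 39.8 and 38.7 FPKM in WT and 19.7, 36.1 and 24.3 in KO replicates 1, 2 and 3. KO replicate 2 lay within the WT range and the other KO libraries below it. The log2 fold change was −0.50 (limma, SE 0.21, adjusted p = 0.245), and it was −0.73 without KO replicate 2 and −0.31 without KO replicate 1. Cxcl12 made up 28.0% to 35.2% of the summed FPKM of these 34 ligands in WT and 18.7% to 33.6% in KO. Among the 34 it was the highest in 5 libraries, and in KO replicate 3 Ccl6 and Ccl9 stood above it. Pf4, a CXC chemokine that the choice by symbol leaves out, stood above Cxcl12 in every library and is not part of these shares. Pf4 was at 34.9, 67.3 and 57.2 FPKM in WT and 47.7, 67.4 and 83.0 in KO (limma, 0.32, adjusted p = 0.552).

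Ccl6 and Ccl9 are CC ligands made by myeloid cells, and Ccl9 is a ligand of Ccr1. Ccl6 was at 12.1, 23.9 and 11.4 FPKM in WT, against 18.1, 15.0 and 35.0 in KO. Ccl9 had 10.4, 19.1 and 11.5 FPKM in WT and 14.9, 13.4 and 27.4 in KO. For both genes the order of the 2 highest libraries was the same, KO replicate 3 and then WT replicate 2, and the groups overlapped. The log2 fold changes were 0.48 for Ccl6 (limma, adjusted p = 0.484) and 0.40 for Ccl9 (0.499), and on leaving out 1 library they ran from 0.13 and 0.09 without KO replicate 3 to 0.80 and 0.65 without WT replicate 2. Together they gave 18.9% to 30.2% of the summed FPKM of the 34 ligands in WT and 26.5% to 48.1% in KO.

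**Figure D2:**
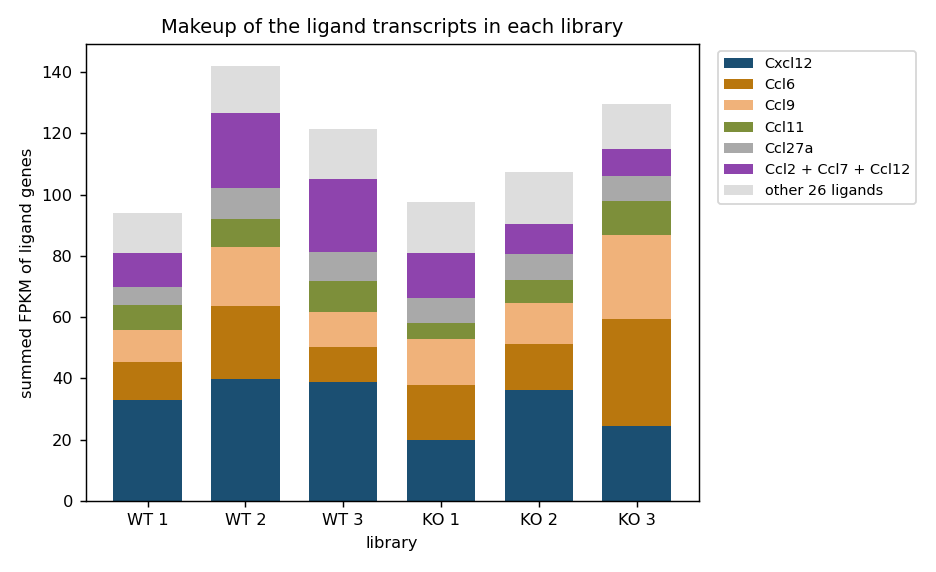
Summed FPKM of the 34 ligand genes in each library, stacked by gene; the legend names each part. The totals run from 93.9 FPKM in WT replicate 1 to 142 FPKM in WT replicate 2, with KO at 97.6 to 130 FPKM, and the Ccl6 and Ccl9 parts are largest in KO replicate 3.

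Ccl2, Ccl7 and Ccl12 are the monocyte chemoattractants, ligands of Ccr2, and lie within 144 kb on chromosome 11 with Ccl11, Ccl8 and Ccl1 (chr11:82035577-82179812). Ccl2 was at 4.34, 10.2 and 9.68 FPKM in WT, against 5.98, 3.77 and 3.69 in KO. WT replicate 1 lay within the KO range, while the other WT libraries stood above every KO library. Its log2 fold change was −0.68 (limma, SE 0.29, adjusted p = 0.253), and on leaving out 1 library it ran from −0.49 without WT replicate 2 (0.579) to −1.02 without WT replicate 1 (0.0507).

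Ccl7 was at 4.77, 8.85 and 7.18 FPKM in WT, against 4.67, 4.17 and 2.55 in KO, where KO held 54.8% of the WT mean. The groups did not overlap, by a margin of WT replicate 1 over KO replicate 1 that was small beside the spread within each group. The log2 fold change of Ccl7 was −0.72 (limma, SE 0.24, adjusted p = 0.16). Ccl12 had 1.95, 5.52 and 6.83 FPKM in WT and 3.94, 1.75 and 2.43 in KO, with overlap (limma, −0.56, adjusted p = 0.429). The sum of the 3 genes was 11.1, 24.5 and 23.7 FPKM in WT and 14.6, 9.69 and 8.67 in KO, so WT replicate 1 lay among the KO libraries.

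Their receptor Ccr2 had 0.73 to 1.15 FPKM in WT and 0.70 to 1.18 in KO (limma, log2 fold change 0.06, 95% interval −0.31 to 0.43, adjusted p = 0.885). Ccl11 and Ccl24, the eotaxins, act on Ccr3. Ccl11 lay at 8.32 to 10.1 FPKM in WT, against 5.35 to 11.3 in KO (limma, −0.24, adjusted p = 0.615), with −0.01 without KO replicate 1 and −0.49 without KO replicate 3. Ccl24 lay at 1.18 to 2.13 and 0.87 to 2.29 FPKM (limma, −0.13, adjusted p = 0.817). Ccr3 itself was listed at 0 in 4 libraries and at 0.02 FPKM in the others.

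Cxcl9, Cxcl10 and Cxcl11 are interferon-inducible ligands of Cxcr3 and lie within 42 kb on chromosome 5 (chr5:92321331-92363296). Cxcl10 was at 0.32, 0.25 and 0.57 FPKM in WT, against 2.36, 0.81 and 2.37 in KO. Every KO library stood above every WT library, and KO replicate 2 was the lowest of the KO group. KO held 4.86 times the WT mean, with 1.85 ± 0.898 against 0.38 ± 0.168 FPKM (SD, n = 3 each), from an estimated 3.9 to 8.8 reads per library in WT and 12.7 to 37.0 in KO. At a log2 fold change of 0.99 (SE 0.25), Cxcl10 did not pass (limma, adjusted p = 0.0764). Without KO replicate 2 it was 1.29 and passed (adjusted p = 0.0314), and over the 15 alternatives the adjusted p ran from 0.0314 to 0.258.

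Cxcl9 had 0.83, 1.17 and 1.31 FPKM in WT and 1.48, 1.44 and 1.32 in KO, and WT replicate 3 and KO replicate 3 differed by 1 unit of the last digit. Its log2 fold change was 0.20 (limma, 95% interval −0.13 to 0.54, adjusted p = 0.493), and 0.11 without WT replicate 1. Cxcl11, under the filter, was at 0.09 to 0.40 FPKM in WT and 0.14 to 0.46 in KO. Cxcr3 had at most 0.09 FPKM in any library, about 2.2 reads.

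Shown here because Cxcl10 and Cxcl1 lay apart in opposite directions are the 250 bases before their starts (RefSeq, GRCm38.p6), with motif matches in capitals. The motifs, searched on both strands, were an interferon-stimulated response element (ISRE: GAAA, any 2 bases, GAAA), a STAT site (GAS: TTC, any 3 bases, GAA) and an NF-kB site (GGG, any 2 bases, TTTCC). No match of one overlapped another. Cxcl10 is at chr5:92348890-92349139 on the minus strand and Cxcl1 at chr5:90890995-90891244 on the plus strand.

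Cxcl10: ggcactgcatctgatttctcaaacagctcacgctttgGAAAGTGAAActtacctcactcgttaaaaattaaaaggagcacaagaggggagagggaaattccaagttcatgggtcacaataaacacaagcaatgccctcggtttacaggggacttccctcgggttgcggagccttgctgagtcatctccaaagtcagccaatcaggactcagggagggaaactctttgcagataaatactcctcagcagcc

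Cxcl1: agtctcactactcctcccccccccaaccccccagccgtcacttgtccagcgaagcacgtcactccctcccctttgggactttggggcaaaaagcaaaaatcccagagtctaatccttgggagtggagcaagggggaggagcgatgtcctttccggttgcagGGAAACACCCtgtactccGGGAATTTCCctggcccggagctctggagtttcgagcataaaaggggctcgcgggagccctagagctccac

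The ISRE match of Cxcl10 begins 213 bases before the start, and the NF-kB matches of Cxcl1 begin 89 and 71 bases before it. The table of starts held 18 of the 24 tested members, with 21 starts. Among these the ISRE letters were found in 1 member (Cxcl10), the NF-kB letters in 2 (Ccl9 and Cxcl1) and the GAS letters in 0. Of all 32851 windows of this length, 2.98% held the ISRE, 1.41% the NF-kB and 7.02% the GAS letters. A match describes the letters of this window only, and the lack of a match does not show that a site is absent. Only 1 strict spelling of each motif was searched. The Cxcl10 window holds gggaaattcc and ggggacttcc, which are close to the NF-kB letters and were not counted. No contrast between the Cxcl10 and Cxcl1 windows was tested.

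Cxcl1 is a ligand of Cxcr2 that attracts neutrophils. It was at 1.20, 0.58 and 1.03 FPKM in WT, against 0.55, 0.29 and 0.51 in KO, and the lowest WT library, replicate 2, was close above the KO group. KO held 48.0% of the WT mean, on 3.9 to 6.9 estimated reads per KO library (log2 fold change −0.41, SE 0.17, limma adjusted p = 0.243). The other members, chosen by symbol, within chr5:90759298-90905938 were under the filter. Among them Cxcl2 was at 0.13, 1.29 and 0.65 FPKM in WT, against 0.07, 0.32 and 0.51 in KO, with overlap. Cxcl3 was listed at 0 in all WT libraries and at 0.07 to 0.14 in KO, at most 2.0 estimated reads, and Cxcl5 was at 0 to 0.45 FPKM. Ppbp, a ligand of Cxcr2 that the choice by symbol leaves out, was higher than these. It was at 3.28, 11.5 and 2.96 FPKM in WT, against 5.84, 3.31 and 17.2 in KO, with overlap (limma, 0.45, adjusted p = 0.711).

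Cxcr2, the receptor of these ligands on neutrophils, had more estimated reads than its ligand Cxcl1 in every library. Values were 4.91, 3.36 and 4.64 FPKM in WT, against 6.69, 6.10 and 5.38 in KO, for 151 to 277 estimated reads per library. Its log2 fold change was 0.42 (limma, SE 0.17, adjusted p = 0.222). Cxcr1 was listed at 0 in 5 libraries. Of the 9 neutrophil markers, 6 could be tested and 0 passed, and their sum was 146 to 230 FPKM in WT and 171 to 411 in KO. KO replicate 2 was highest in that sum, and KO replicate 1 was highest in Cxcr2.

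Ccr1, which Ccl3, Ccl5, Ccl6, Ccl7 and Ccl9 can engage on monocytes and macrophages, was higher in each KO library. Its values were 2.69, 2.56 and 2.79 FPKM in WT and 4.78, 4.47 and 4.23 in KO. The gap between the groups was larger than the range within either, as it also was for Ccl3. KO held 168% of the WT mean, with 4.49 ± 0.276 against 2.68 ± 0.115 FPKM (SD, n = 3 each). On the log2 scale the difference was 0.58 (SE 0.14, limma adjusted p = 0.0654). The fold change ran from 0.53 to 0.74 over 15 alternatives and the adjusted p from 0.0595 to 0.235, so that it passed in none.

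Ackr1, the atypical receptor of red cells and venular endothelium that binds CC and CXC ligands alike, was at 0.56, 1.5 and 1.83 FPKM in WT, against 2.60, 3.01 and 3.01 in KO. WT replicate 1 was the lowest library, and the KO libraries lay close together above WT. The log2 fold change was 0.80 (limma, SE 0.22, adjusted p = 0.101), and 0.54 without WT replicate 1. The 8 blood endothelium markers summed to 498 to 614 FPKM in WT and 519 to 585 in KO, and the erythroid markers were highest in WT replicate 3. An annotated exon of Ackr1 shares 284 nt with an exon of Cadm3 on the same strand, and how reads there were assigned is not given in the sources used here.

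Cxcr4, the signalling receptor of Cxcl12, was at 1.33, 0.98 and 1.53 FPKM in WT, against 1.88, 3.86 and 1.93 in KO. KO replicate 2 was far above the rest, and the remaining KO libraries were close above WT. Its log2 fold change was 0.60 (limma, SE 0.22, adjusted p = 0.192), and 0.36 without KO replicate 2. Ackr3, the scavenging receptor for Cxcl12, had 4.18 to 5.88 FPKM in WT and 4.96 to 6.19 in KO (limma, 0.20, 95% interval −0.18 to 0.57, adjusted p = 0.556), and its fold change was 0.11 without WT replicate 1 and 0.32 without WT replicate 2. All 6 tested receptors thus had a fitted change above 0, with 0 past the threshold, 4 at an unadjusted p under 0.05 and a median of 0.50. Of all genes tested, 51.6% had a fitted change above 0 and 19.2% an unadjusted p under 0.05.

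**Figure D3:**
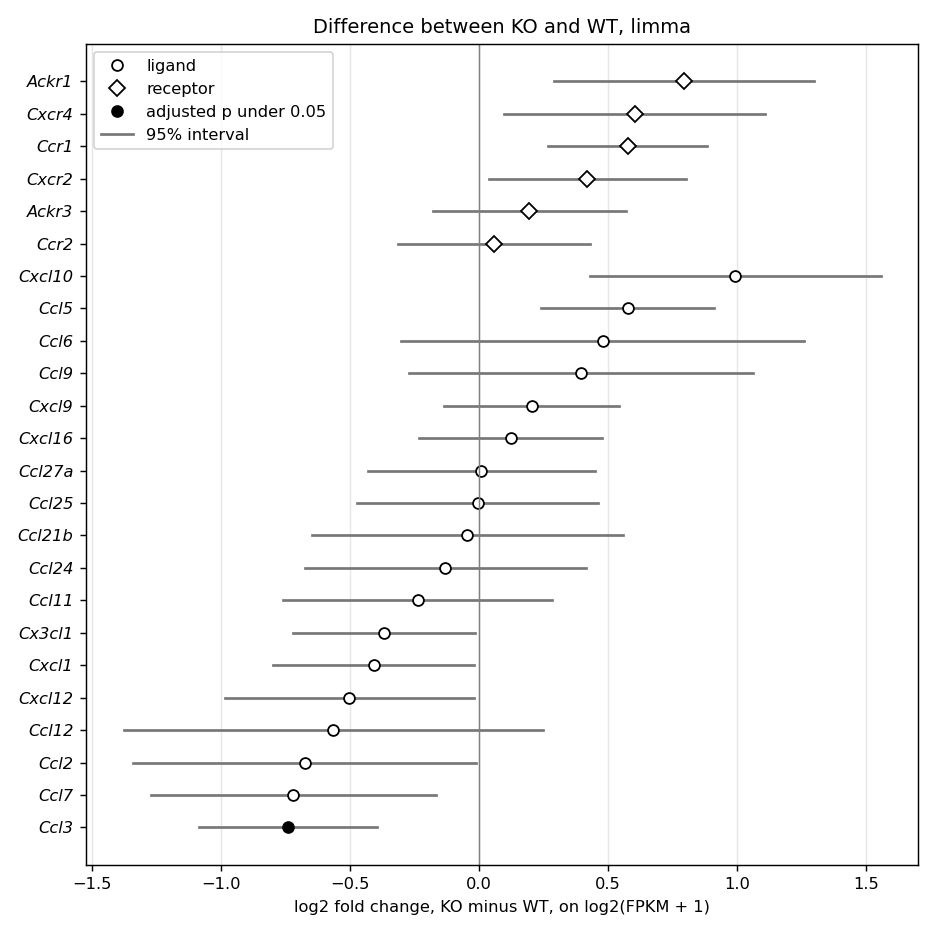
Fitted log2 fold change of KO minus WT with its 95% interval for the 24 tested genes; diamonds are receptors, circles ligands, and the filled circle is the gene past an adjusted p of 0.05. The 6 receptors lie between 0.06 and 0.80, and the ligands between −0.74 (Ccl3, filled) and 0.99 (Cxcl10).

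Among the remaining ligands, Ccl5 (RANTES), a ligand of Ccr1 made by T and NK cells, was at 0.13, 0.25 and 0.25 FPKM in WT, against 0.81, 0.62 and 1 in KO. The groups were apart, at 0.9 to 1.8 estimated reads in WT and 4.5 to 7.2 in KO (log2 fold change 0.58, SE 0.15, limma adjusted p = 0.082). The 8 T cell markers summed to 1.73 to 2.30 FPKM in WT and 1.49 to 3.20 in KO. The 6 NK cell markers summed to 0.78 to 1.05 and 0.60 to 2.25 FPKM. Of each of these lists, 1 marker reached the filter.

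Cx3cl1, or fractalkine, is a membrane-tethered chemokine. It was at 1.23, 1.86 and 1.67 FPKM in WT, against 1.01, 0.85 and 1.13 in KO, lower in each KO library (limma, −0.37, SE 0.16, adjusted p = 0.243). Its receptor Cx3cr1, which the symbol rule leaves out and which is named here for this pairing, was at 0.57 to 0.68 FPKM in WT, against 0.30 to 0.92 in KO (limma, −0.13, adjusted p = 0.75).

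The ligands with fitted changes nearest to 0 were Ccl25 and Ccl27a, epithelial chemokines for Ccr9 and Ccr10. Ccl27a had 5.93, 10.0 and 9.60 FPKM in WT and 8.24, 8.73 and 8.18 in KO (limma, 0.01, 95% interval −0.43 to 0.45). Ccl25 had 2.10 to 3.38 FPKM in WT and 2.04 to 3.40 in KO (limma, −0.004, 95% interval −0.47 to 0.46). Cxcl16, the ligand of Cxcr6, was at 0.49 to 0.72 and 0.61 to 1.03 FPKM (limma, 0.12, adjusted p = 0.717), and its exons overlap those of Zmynd15 on the opposite strand by up to 552 nt. Ccl21b, a ligand of Ccr7, was at 0.34 to 0.82 FPKM in WT, against 1.01, 0.87 and 0 in KO (limma, −0.04, adjusted p = 0.951). Reads of Ccl21a and Ccl21b, and of Ccl27a and Ccl27b, come from near-identical copies, so their split is uncertain.

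**Figure D4:**
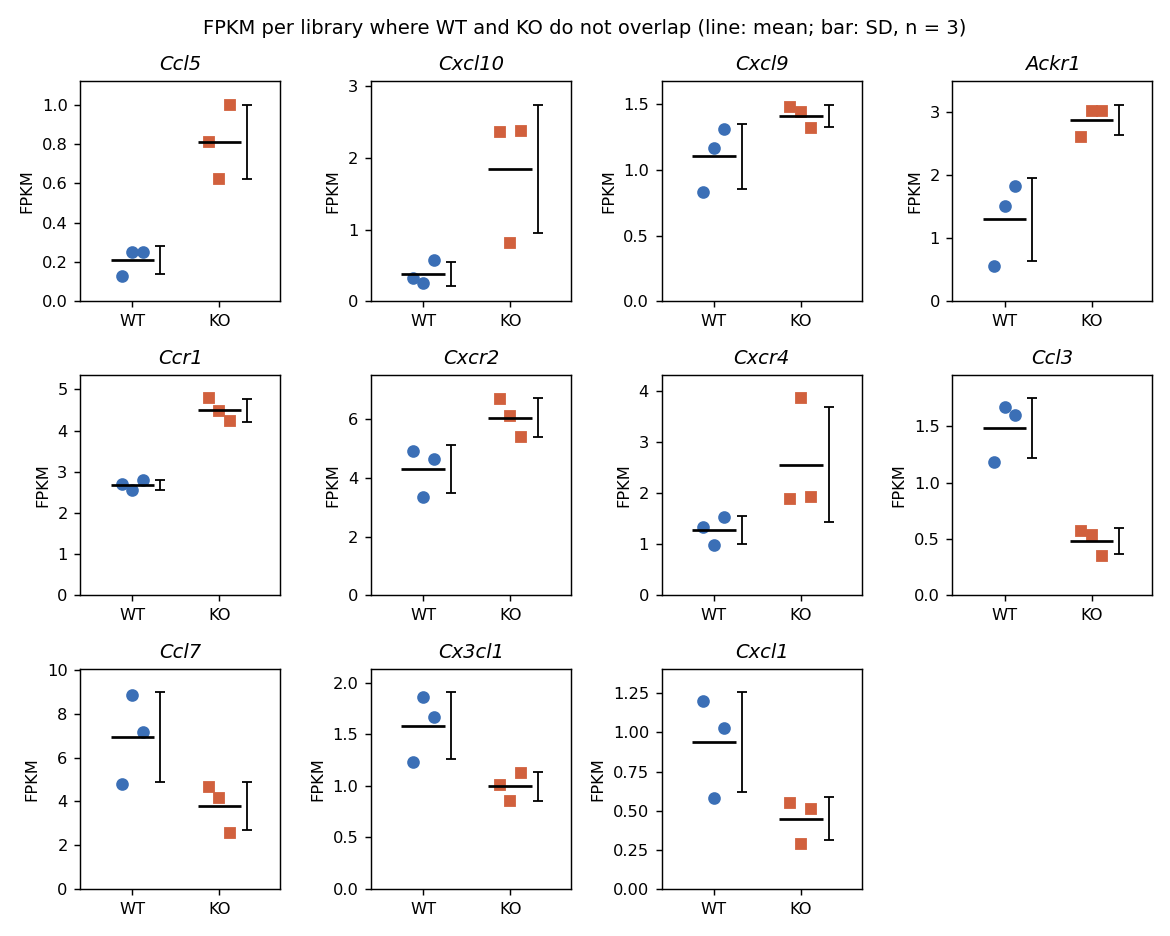
FPKM in each library for the 11 tested genes whose WT and KO values do not overlap, on linear axes from 0; lines are means and bars SD (n = 3). The first 7 panels are higher in KO, and the last 4, from Ccl3 to Cxcl1, are lower in KO. In Ccr1 and in Ccl3 the gap between the groups is larger than the range of either group.

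The 31 members under the filter had means of 0.007 FPKM (Ccr3) to 0.495 FPKM (Ccr10 and Cxcl2), just under the lowest member that passed, Ccl5 at 0.51 FPKM. None was listed at 0 in every library, 21 did not reach 0.5 FPKM in any library, and each library held 5 to 10 members at 0. The 9 CC ligands among them included Ccl19, at 0 to 0.31 FPKM in WT and 0.21 to 0.89 in KO, and Ccl8, at 0.14 FPKM in each WT library and 0.46, 0.14 and 0.42 in KO, which is 0.9 to 2.9 estimated reads. Ccl28 was at 0.11 to 0.18 FPKM in WT and 0.21 to 0.57 in KO without overlap, from 6.0 to 9.7 and 11.6 to 29.1 estimated reads. The 7 CXC ligands included Cxcl14, at 0.15 to 0.63 FPKM, and the B cell attractant Cxcl13, at 0.18 to 0.24 FPKM in WT and 0.18 to 0.54 in KO. The 15 receptors included Ccr10 (0.24 to 1 FPKM), Ackr4 (0.18 to 0.75 FPKM) and Xcr1 (0.08 to 0.20 FPKM). Some lymphocyte receptors, Ccr4, Ccr6, Ccr7 and Cxcr3, stayed at or below 0.09 FPKM. Other lymphocyte receptors under the filter reached higher values, so these do not stand for all of them.

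Beyond the members, the transduction machinery of chemokine receptors (G proteins, arrestins, receptor kinases, PI3Kγ and Rac regulators) had 36 of 38 genes tested, of which 0 passed. An unadjusted p under 0.05 was found for 4, against 19.2% of all genes tested, and the median log2 fold change was 0.02. The 2 with the smallest p were Adrbk2, the receptor kinase also called Grk3, at 8.59, 20.9 and 15.0 FPKM in WT and 6.72, 3.56 and 2.61 in KO (limma, −1.58, adjusted p = 0.055), and Pik3r5, a regulatory subunit of PI3Kγ, at 0.91 to 1.09 and 1.62 to 2.06 FPKM (0.51, adjusted p = 0.0985). The count of this list was 1 with a filter of 5 FPKM, without WT replicate 1 and without KO replicate 1.

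Of 28 interferon-inducible genes, all tested, 1 passed: Iigp1, an immunity-related GTPase, rose from 7.70, 5.03 and 5.48 FPKM in WT to 19.1, 10.7 and 19.3 in KO (limma, log2 fold change 1.27, adjusted p = 0.0405). The fitted change was above 0 in 27 of the 28, 13 had an unadjusted p under 0.05, and the median was 0.35. The list summed to 163, 180 and 209 FPKM in WT and 300, 185 and 281 in KO. In that sum KO replicate 2 lay within the WT range. Over all genes tested 51.6% were above 0, 19.2% had such a p, 2.21% passed, and the median was 0.01. Like Cxcl10, Iigp1 was lowest in KO replicate 2 among the KO libraries, as was the interferon-induced Ifit3, named after its values were seen, at 14.7, 6.39 and 16.3 FPKM there. The list count was 0 on leaving out WT replicate 2 or 3 or KO replicate 1 or 3, with no filter and with a common FPKM sum, and 4 without KO replicate 2. Of 18 tested NF-kB and inflammatory cytokine genes, 1 passed: Nfkbia, the inhibitor induced by NF-kB, rose from 15.0, 25.9 and 19.5 to 38.2, 41.6 and 50.5 FPKM (limma, 1.10, adjusted p = 0.0391), a count that was 0 with no filter, without WT replicate 2 or 3 and without any one KO library. In that list 14 of the 18 had a fitted change above 0, 5 had an unadjusted p under 0.05, and the median was 0.23. The shares over all genes are those given for the interferon list.

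Heparan sulfate, the sugar chain that holds chemokines on cell surfaces, was covered by 17 genes. Of these 0 passed and 5 had an unadjusted p under 0.05, against 19.2% of all genes tested. Those with the smallest p were Glce, at 8.25 to 10.7 FPKM in WT and 13.5 to 15.5 in KO (limma, 0.57, adjusted p = 0.0846), and Extl3, at 12.7 to 14.5 and 8.10 to 9.69 FPKM (−0.51, adjusted p = 0.0985). Of 11 tested chemokines and related genes outside the rule 0 passed. An unadjusted p under 0.05 was found for 2, against 19.2% of all genes tested. These were Dpp4, the protease that trims chemokines, at 1.75 to 4.43 and 4.05 to 8.45 FPKM (limma, 0.75, adjusted p = 0.224), and Cmklr1, the chemerin receptor, at 3.19 to 3.56 and 4.16 to 5.21 FPKM (0.34, adjusted p = 0.248). The part of the macrophage and neutrophil marker sums given above in any of these results was not tested.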

How the data were processed

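Bulk RNA-seq of 3 WT and 3 KO libraries was analysed from the FPKM values the authors deposited, 1 per gene and library for 19241 genes. Per the submitters' processing notes, HISAT2 2.0.4, Bowtie2 2.2.5, DESeq2 and the mm10 build were used, with no role or order given. Raw counts were not used here. The members and gene lists were chosen with earlier results of these data known. The 13331 genes averaging 0.5 FPKM or more across all 6 libraries were fitted with limma 3.58.1 (R 4.3.3; lmFit, eBayes with trend, two-sided) on log2(FPKM + 1), with Benjamini-Hochberg adjustment over all of them and a threshold of 0.05. For single genes, 3 against 3 libraries cannot go below an exact permutation p of 0.1. On simulated data with 200 genes changed by 1.5 on the log2 scale for this comparison over 13331 genes, 178 were recovered, with 10 false calls. The changed genes were drawn only from genes with levels above those of Ccl3, Cxcl10 and Ccl5. A change of 1.5 is also larger than the fitted change of any member, so this recovery does not describe the members.

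Named genes were Fstl1, members past the threshold or without overlap, and the 6 ligands and 6 receptors with the highest means. Of each list, the genes past the threshold or the 2 with the smallest p were named. Other members were named by role, and Pf4, Ppbp and Ucp1 after their values were seen. Reads per gene were estimated from the steps between low FPKM values, where 77.4% to 82.7% of the values used lay within 0.2 reads of a whole read, against 40.0% for values falling anywhere. The depth was chosen to bring these same values closest to whole reads. The 40.0% holds for a depth set beforehand, so it is not a matched baseline. The estimated reads are approximate, since the transcript length and the length offset of 50 nt are assumed. Coordinates and sequences are RefSeq's for GRCm38.p6, the assembly of mm10. In all, 16 alternatives were tried. The values of 1 member under the filter are not reported here.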

Additional observations from a re-analysis of the deposited data

How the results depend on the processing

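The count of 295 genes past the threshold was 35 with no filter on low values, 191 with a common FPKM sum and 31 (without WT replicate 3) to 370 (without WT replicate 1) when 1 library was left out. The member count of 1 was 0 with a pseudocount of 0.1 or 0.01, with no filter, with a filter of 5 FPKM (which removed Ccl3), with a common FPKM sum and with the replicate block, and 0 to 1 when 1 library was left out. It stayed at 1 (Ccl3) without WT replicate 1, and without KO replicate 2 it was 1 with Cxcl10 in place of Ccl3. The adjusted p of Ccl3 (limma) ran from 0.0323 to 0.183. Of 294 values for 19 members under the alternatives, 278 kept their direction and call, 10 lost the call, 1 gained it and 5 changed sign. Only Ccl3 had a call to lose. The filters, the eBayes settings and the block cannot change a fold change, so the 278 do not measure stability. Ccl27a changed sign with quantile normalization (−0.025) and median-of-ratios scaling (−0.013), and ran from −0.20 to 0.13 when 1 library was left out. Ccr2 ran from −0.020 to 0.16 when 1 library was left out. The cause of these changes was not tested. Fstl1 missed the threshold with no filter (log2 fold change −2.79, adjusted p = 0.0606).

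With the replicate number as a block, 167 genes passed and the adjusted p of Ccl3 was 0.0775, and the count of interferon-inducible genes went from 1 to 3. Same-numbered libraries were not paired by the data: their deviations from the group means correlated at 0.0433 to 0.0681. Members near 0.5 FPKM with short transcripts, such as Ccl5 and Ccl21b, rest on few reads, which limits what could be detected.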
